A study of Mus musculus with 23 samples.

Results

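The DNA transposons outside the hAT-Charlie and Tc1/mariner families were described in spinal cord RNA of PS19 mice and their wild-type littermates. Every row of the deposited repeat table with the class DNA or DNA? was taken unless its family was hAT-Charlie or began with TcMar, which gave 88 of 1135 rows, each row being a repeat subfamily. They comprised 31 rows of family hAT-Tip100, 8 of hAT-Blackjack, 7 of hAT, 4 of MULE-MuDR, 4 of MuDR and 1 of PiggyBac, the row Looper. A further 10 rows carried MER names and the bare family DNA, 5 were UCON names and 18 were Eulor names. UCON29 was listed under PiggyBac and UCON23 under hAT, and the other UCON and Eulor rows under the family DNA. In 20 rows the class read DNA?, with a question mark for an uncertain class. Another 27 UCON or Eulor names stood in the class Unknown and were not taken.

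PS19 mice carry a human mutant tau transgene under the mouse prion promoter and develop tau aggregates in brain and spinal cord. The animals were heterozygous offspring of founders from a commercial colony, and the controls were littermates without the transgene. Poly(A)-selected, strand-specific libraries of whole spinal cord lysate came from 7 PS19 and 6 control animals at 9 months and from 5 PS19 and 5 control animals at 4 months. The table holds repeats and no genes, so neither the transgene nor any marker of spinal cord cell types could be read from it. In whole tissue, fewer cells of a type and less RNA per cell cannot be told apart.

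DNA transposons move by cut and paste: a transposase binds the terminal inverted repeats of the element and inserts it elsewhere. The hAT superfamily, with its Tip100 and Blackjack branches, the MULE-MuDR elements named after the Mutator elements of maize, and PiggyBac left many copies in mammalian genomes, and the copies in mouse are regarded as inactive fossils. UCON names were given to repeats recognised among ultraconserved elements, and Eulor names to low-copy repeats shared across bony vertebrates. Copies of both groups are known for being conserved, and some have been described as enhancers or parts of exons.

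Values are normalized reads, that is reads per row divided by a size factor of the sample, and are not corrected for length or copy number. The 88 rows together held between 1878 and 2976 reads per sample at 9 months and between 1551 and 8277 at 4 months. Repeat signal was uneven among the 4-month samples. Replicates 1 to 3 of both genotypes summed to 1494940 to 2459740 normalized repeat reads, and replicates 4 and 5 of both genotypes to 471178 to 779835. All 13 samples of the 9-month animals lay between 370990 and 539759. Of the 88 rows, 87 had a higher mean in replicates 1 to 3 than in replicates 4 and 5 of the 4-month animals. The sets were recognised from these totals, are no groups of the study, and followed the sample numbers. All 4-month animals also carried higher sample numbers than all 9-month animals, so age and whatever else changed along the numbering cannot be told apart. Age comparisons are therefore given with all 4-month samples, and counts of rows, several sums and several single rows also with replicates 4 and 5 alone.

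Summed over the 88 rows, the signal at 9 months was 2330 ± 233 normalized reads in PS19, against 2216 ± 190.7 in control (SD over 7 and 6 animals). The 4-month sum was 4346 ± 2267 in PS19, against 5067 ± 3355 in control (SD over 5 animals each). The 9-month mean was 0.484 times the 4-month mean, and 1.23 times the mean of the 4-month replicates 4 and 5. Over all 1135 rows these ratios were 0.321 and 0.711. They were 0.405 and 1.03 in the hAT-Charlie rows and 0.399 and 1.13 in the TcMar rows. As a share of each sample's repeat signal, the 88 rows held 0.534% ± 0.0201 at 9 months, against 0.340% ± 0.0310 at 4 months (SD over 13 and 10 samples). The lowest 9-month share, 0.504%, lay above the highest 4-month share, 0.382%. The hAT-Charlie and TcMar rows showed the same separation, at 3.55% against 3.13% and at 1.13% against 1.09%, so it was not particular to the 88 rows. PS19 and control shares at 9 months were 0.521% ± 0.0180 and 0.549% ± 0.00949.

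The families differed in their balance between the ages. UCON rows summed to 88.7 ± 13.7 normalized reads at 9 months and to a mean of 77.2 at 4 months, where single samples lay between 5.75 and 167. Eulor rows summed to 192 ± 38.6 at 9 months and 217 ± 134 at 4 months. The hAT-Tip100 rows summed to 1242 ± 79.2 at 9 months and 2368 ± 1263 at 4 months, and the hAT-Blackjack rows to 255.02 ± 53.2 at 9 months and 936 ± 595 at 4 months. MuDR rows gave the smallest ratio of 9 to 4 months, 0.128, at 6.69 ± 4.53 against 52.3 ± 28.2. Against the 4-month replicates 4 and 5 alone, the ratio was 5.58 for UCON, 2.21 for Eulor, 1.40 for hAT, 1.19 for hAT-Tip100, 0.839 for hAT-Blackjack and 0.279 for MuDR. The UCON ratio rests on UCON14, with 94.8% of the UCON signal at 9 months, and the Eulor ratio on Eulor5A and Eulor6E. Against the same 4-month samples, UCON29 and Eulor10 had log2 fold changes of -1.91 and -1.265 in PS19, the second of which did not pass.

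**Figure D1:**
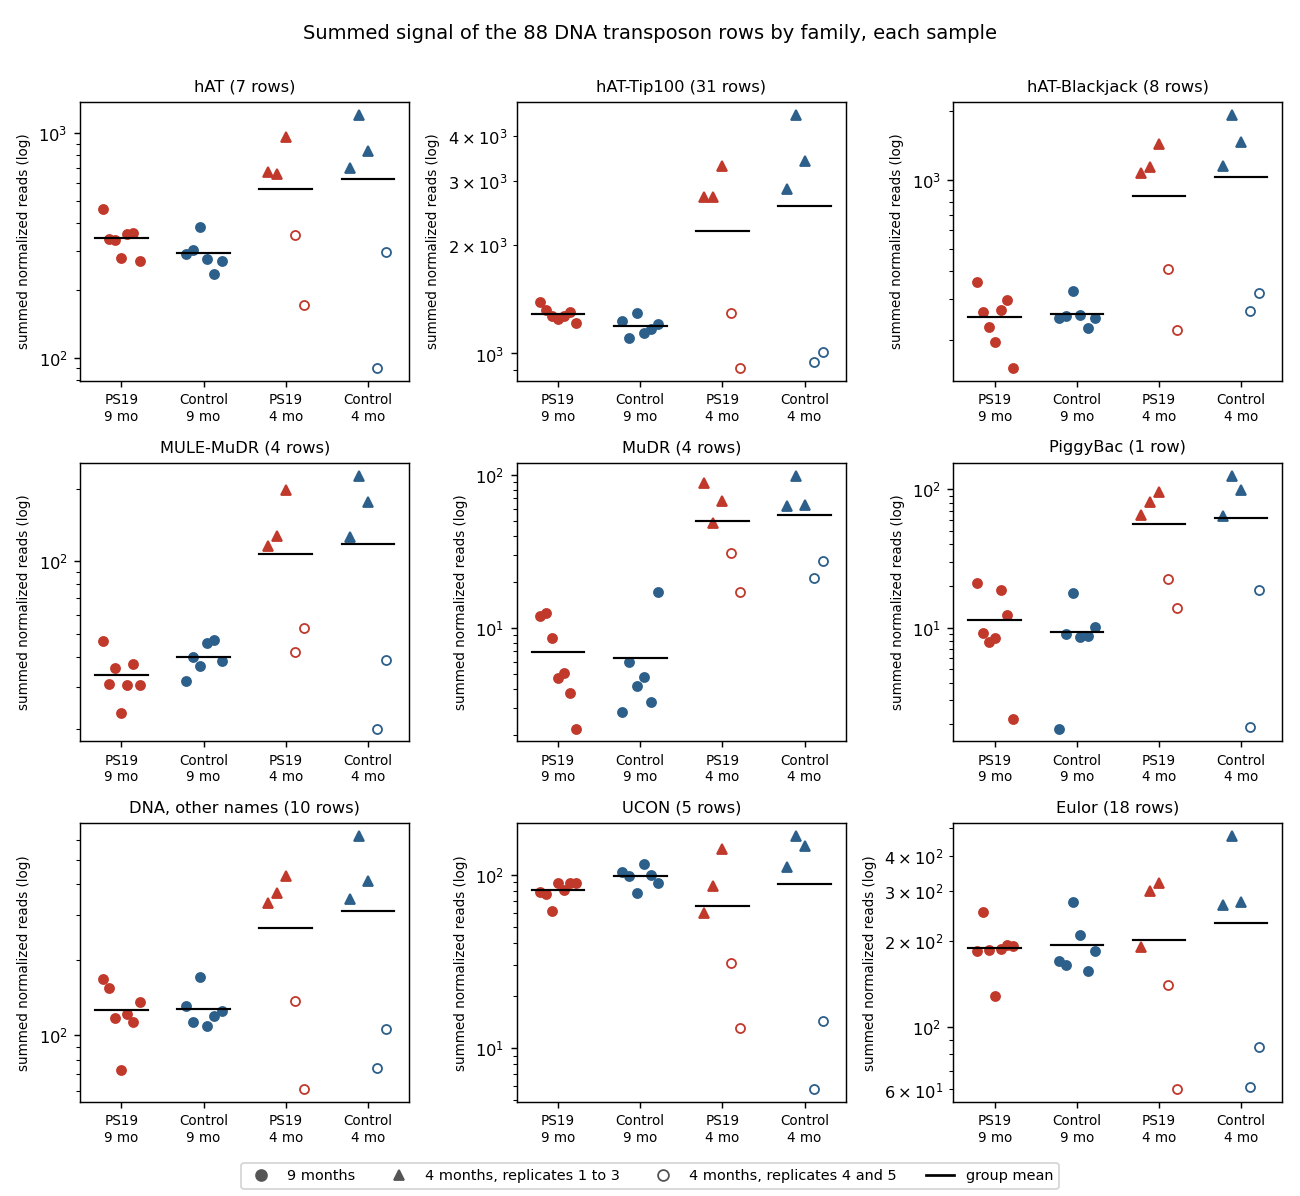
Summed normalized reads per sample on a log axis for each family of the 88 rows. Filled circles are 9-month animals, triangles are 4-month replicates 1 to 3, open circles are 4-month replicates 4 and 5, and bars are group means. PS19 is red and control blue. UCON is the panel in which the 9-month mean, 88.7, lies above the 4-month mean, 77.2, while the MuDR 9-month samples lie between 2.19 and 17.1.

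Much of the signal lay in a few rows. At 9 months 5 rows held 55.0% of it: MamTip2, MER91A and MER96B of hAT-Tip100, MER53 of hAT and Eulor5A. MamTip2, a mammalian Tip100 relative and the row with the most reads, averaged 405 ± 75.2 normalized reads over the 13 samples at 9 months, against 564 ± 123 over the 10 at 4 months (SD). Its fall of 0.76 on the log2 scale in control (SE 0.27, limma adjusted p = 0.00998) turned to 1.22 after scaling within the repeats by TMM, a trimmed mean of log ratios, and in PS19 the change of -0.21 (SE 0.26), which did not pass as deposited, was 1.52 with TMM (limma adjusted p = 4.74e-06). MER53, a hAT element and the leading hAT row, averaged 272 ± 48.4 at 9 months and 327 ± 198 at 4 months. At the low end, 33 rows reached a mean of 10 at 9 months and 60 did at 4 months. All 13 samples at 9 months had 0 reads in 15 rows, among them 7 Eulor rows, whereas 0 rows had no read in all 10 samples at 4 months. In the 4-month replicates 4 and 5, whose repeat signal was closer to that of the 9-month samples, 7 rows had 0 reads in all 4 samples, 3 of them Eulor and 2 UCON rows, and 4 of the 7 also had 0 reads at 9 months. The MER97d row of hAT-Tip100 was 1 of the 15, with 0 reads at 9 months and between 0.959 and 12.7 normalized reads in the 4-month samples. Its 4-month mean of 5.75 ± 4.17 (SD, n = 10) put the 9-month level at least 25.3-fold lower, taking 3 reads over the 9-month group as the limit that a count of 0 allows. Against the 4-month replicates 4 and 5 alone, at 2.20 ± 1.31, it was at least 9.67-fold lower. This limit covers counting error alone.

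Tests covered the rows whose mean over the 23 samples reached 10, which were 49 of the 88 and 920 of all rows. Of these 49, 16 had a mean under 10 at 9 months and 3 had one under 10 at 4 months, so most rows near the limit passed through their 4-month values. The 3 were Eulor6E, MER136 and MER123, which passed through their 9-month values. In these 16 and 3 rows the age comparison uses the values that let the row pass. Its adjusted p therefore lends no separate support there. Tested were 23 hAT-Tip100, 7 hAT-Blackjack, 5 hAT, 1 MULE-MuDR, 1 MuDR, 1 PiggyBac, 6 other DNA, 2 UCON and 3 Eulor rows.

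**Figure D2:**
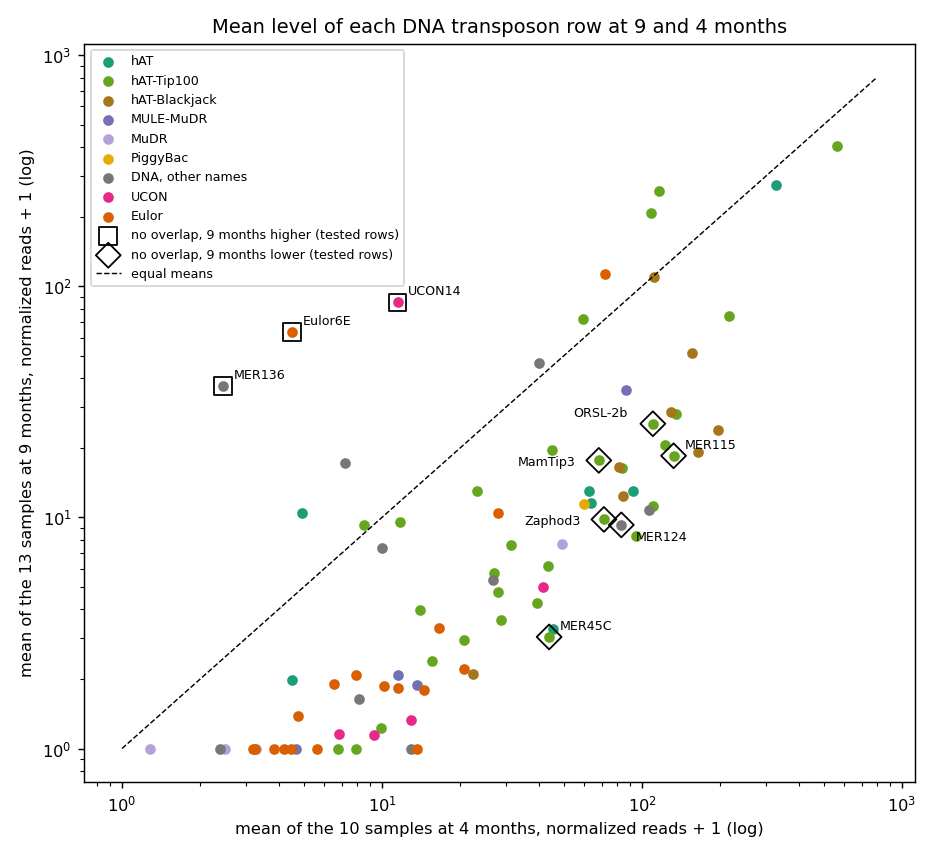
Mean normalized reads plus 1 of each of the 88 rows at 9 months (vertical, 13 samples) and 4 months (horizontal, 10 samples), both on log axes, coloured by family. Squares mark tested rows whose 9-month samples all lay above the 4-month samples and diamonds those all below. Most points lie under the dashed line of equal means, and UCON14, Eulor6E and MER136 lie far above it.

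In 3 of the 49 tested rows the lowest 9-month sample lay above the highest 4-month sample, 6.12 percent, and the share among all 920 rows was 3.26 percent. These were UCON14, Eulor6E and MER136, of which Eulor6E and MER136 passed the limit for testing through their 9-month values alone. UCON14 was at 60.4, 78.8 and 87.0 normalized reads in PS19 and at 69.2, 90.7 and 113 in control at 9 months (lowest, median and highest). At 4 months it was at 10.5, 11.1, 30.0, 9.08 and 0 in PS19 and at 9.57, 20.4, 12.8, 0 and 1.18 in control. All 13 samples at 9 months were thus above 60, and the highest 4-month sample, PS19 replicate 3, reached 30.0. The reads behind these values were 1106 at 9 months and 102 at 4 months.

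Eulor6E showed the same order with lower 4-month values. It was at 36.5, 60.4 and 84.3 normalized reads in PS19 and at 52.7, 57.0 and 97.6 in control at 9 months (lowest, median and highest). At 4 months it was at 0.806, 5.57, 2.31, 3.40 and 0 in PS19 and at 6.38, 6.81, 3.21, 1.92 and 4.72 in control. The 9-month mean was 17.7 times the 4-month mean. Both sets of 4-month samples were low in this row, at a mean of 4.18 for replicates 1 to 3 and of 2.51 for replicates 4 and 5.

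MER136, of the bare family DNA, was at 20.6, 36.1 and 43.9 normalized reads in PS19 and at 18.1, 43.0 and 54.6 in control at 9 months (lowest, median and highest). The 4-month samples were at 0, 0, 4.62, 0 and 0.813 in PS19 and at 3.19, 2.27, 0, 0 and 3.54 in control. It had 470 reads over the 13 samples at 9 months and 14 over the 10 at 4 months. The 9-month samples lay far above the 4-month samples in both genotypes, and 5 of the 10 samples at 4 months had no read.

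These 3 rows were picked because all 9-month samples lay above all 4-month samples. The direction in the limma fit of all 23 samples was thereby fixed in each genotype, and the fit gives the size of the change. UCON14 had a log2 fold change of 3.19 (SE 0.65, limma adjusted p = 9.7e-05) for 9 over 4 months in PS19 and 3.98 (SE 0.67, limma adjusted p = 8.72e-06) in control. Eulor6E had 4.38 (SE 0.45) in PS19 and 3.63 (SE 0.47) in control, and MER136 had 4.38 (SE 0.54) in PS19 and 4.06 (SE 0.56) in control, with limma adjusted p of 1.04e-06 or less. Eulor6E and MER136 had also passed the limit for testing through these same high 9-month values. The adjusted p of all 3 rows, UCON14 included, therefore lend no separate support. After TMM scaling within the repeats the values of these 3 rows in PS19 and control were larger, between 4.85 and 5.87. Fold changes are of normalized reads plus 1 on the log2 scale, which understates changes of low rows.

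**Figure D3:**
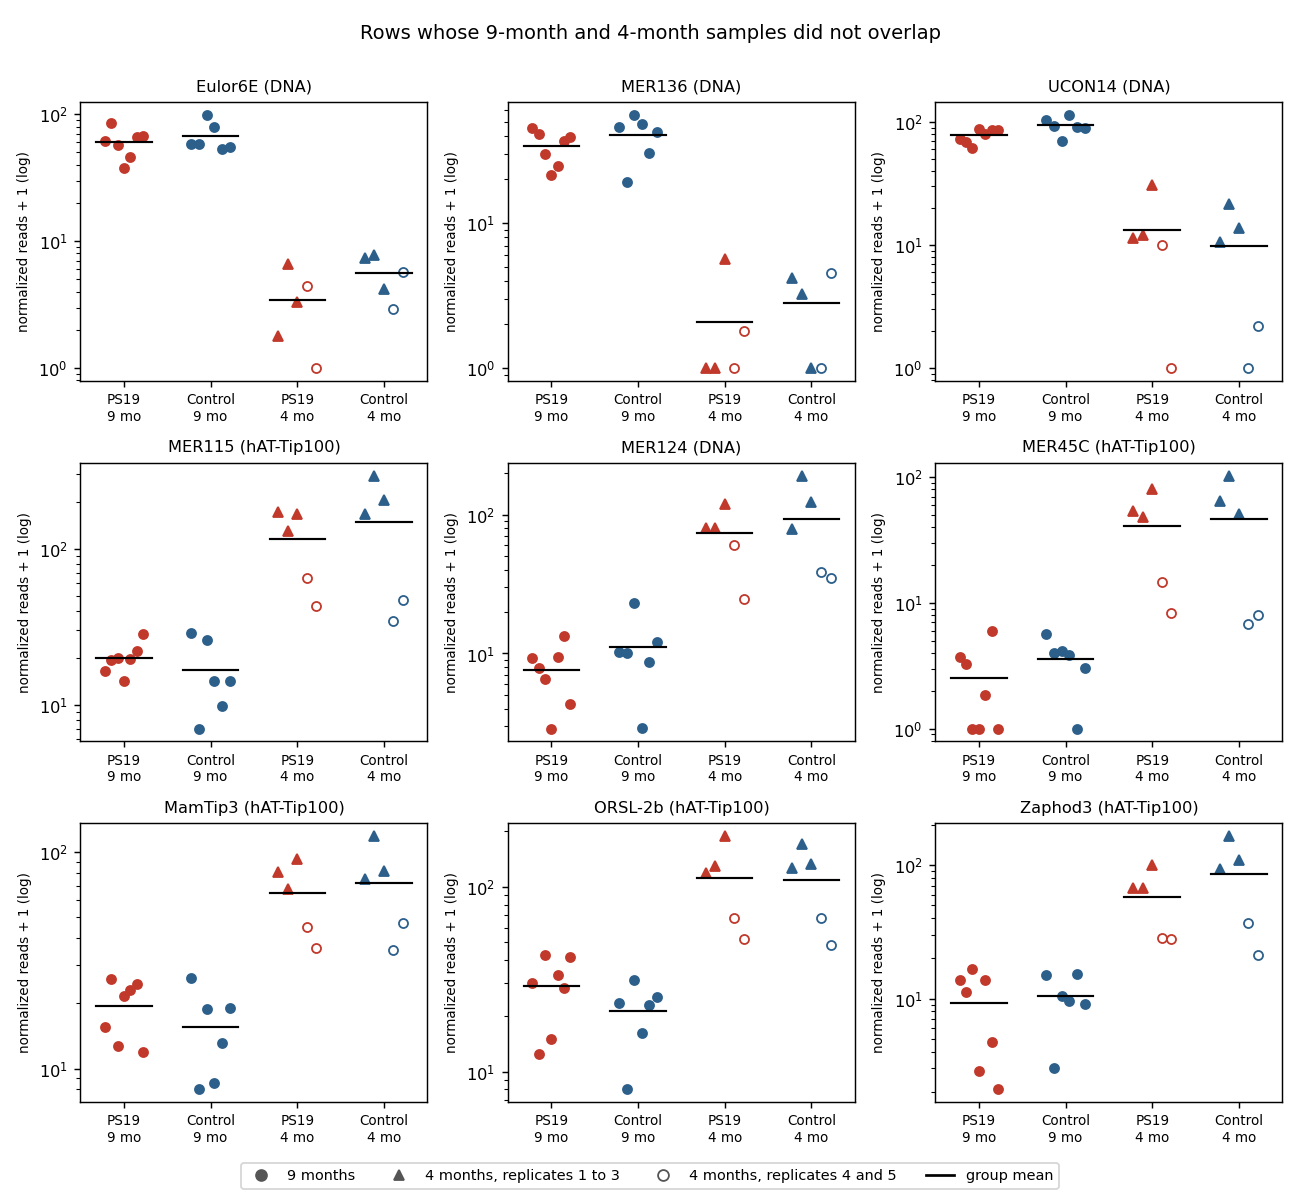
Normalized reads plus 1 per sample, on log axes, of the 9 tested rows whose 9-month and 4-month samples did not overlap. Symbols are as in the family plot and bars are group means. The top row shows Eulor6E, MER136 and UCON14 with every 9-month sample higher, and the other panels show 6 rows with every 9-month sample lower, among which MER124 has the narrowest gap on the log axis, 22.03 against 23.6.

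In 6 of the 49 rows the highest 9-month sample lay below the lowest 4-month sample, 12.2 percent, against 27.1 percent of all 920 rows. They were MER124 of the family DNA and MER45C, Zaphod3, MER115, ORSL-2b and MamTip3 of hAT-Tip100. MER97d, under the limit for testing, also did not overlap. MER45C was at 0, 0.847 and 4.97 normalized reads in PS19 and at 0, 2.93 and 4.66 in control at 9 months (lowest, median and highest). At 4 months it was at 52.4, 47.4, 79.7, 13.6 and 7.31 in PS19 and at 63.8, 102, 50.3, 5.75 and 7.08 in control. The 9-month samples were low throughout, while the 4-month samples differed widely between the sets.

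MER124 was at 1.87, 6.83 and 12.4 normalized reads in PS19 and at 1.90, 9.18 and 22.03 in control at 9 months. At 4 months it was at 79.8, 79.9, 119, 59.0 and 23.6 in PS19 and at 77.4, 190.6, 122, 37.4 and 34.2 in control. The gap was the narrowest of the 6 as a ratio, since control replicate 3 at 9 months, at 22.03, came close to PS19 replicate 5 at 4 months, at 23.6. In Zaphod3 the highest 9-month sample was at 15.7 and the lowest 4-month sample at 20.1. The same 2 values were 28.0 and 33.5 in MER115, 25.2 and 34.5 in MamTip3, and 41.6 and 47.2 in ORSL-2b. The lowest 4-month sample belonged to replicates 4 and 5 in each of these 6 rows.

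How many rows did not overlap turned on the 4-month samples used and on the scale. With the 4-month replicates 4 and 5 alone, 10 of the 49 rows were higher at 9 months without overlap, 20.4 percent against 10.9 percent of all rows, and the 6 lower rows were the same. The 7 added rows were MER91A, MER96B and MER45R of hAT-Tip100, MER81 of hAT-Blackjack, MER123, MER135 and Eulor5A. As percent of each sample's summed repeat signal, 11 rows were higher at 9 months, 22.4 percent against 16.4 percent of all rows. These were the same 10 and MER53. On that scale 1 of the 49, MER124, was lower, 2.04 percent against 16.6 percent of all rows. With percent values and the 4-month replicates 4 and 5 alone, 12 rows were higher and 1 lower, where 19.6 and 21.2 percent of all rows were. UCON14, Eulor6E and MER136 stood higher at 9 months in all 4 of these counts.

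The neighbouring families moved in the same way between scales. Among 64 tested hAT-Charlie rows, 1 was higher at 9 months without overlap as deposited, 13 with the 4-month replicates 4 and 5 alone and 23 as percent of the repeat signal. Among 49 tested TcMar rows the counts were 2, 7 and 11. The shares of 6.12 percent in the 49 rows, 1.56 percent in hAT-Charlie and 4.08 percent in TcMar rest on 3, 1 and 2 rows. Rows lower at 9 months without overlap as deposited were also few in these families, 4 in hAT-Charlie (6.25 percent) and 4 in TcMar (8.16 percent). The share was 12.2 percent in the 49 rows and 27.1 percent in all rows.

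**Figure D4:**
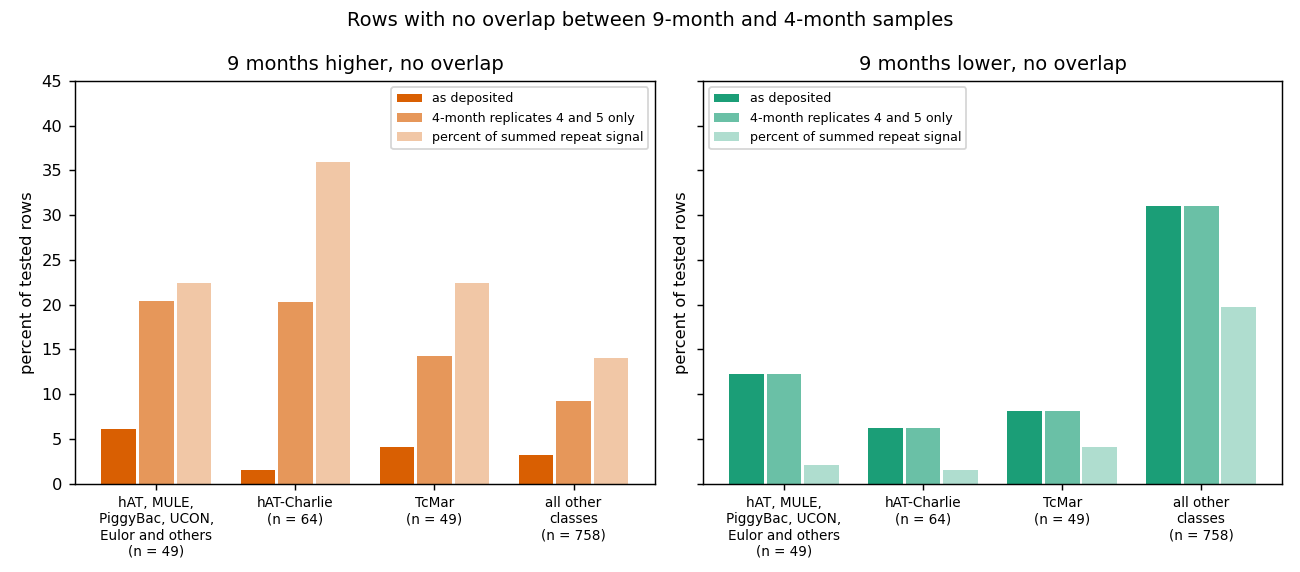
Percent of tested rows whose 9-month samples all lay above (left) or below (right) the 4-month samples, for the 49 rows described here, 64 hAT-Charlie rows, 49 TcMar rows and 758 rows of all other classes. Dark bars use the deposited values, middle bars the 4-month replicates 4 and 5 alone and light bars the percent of summed repeat signal. The light bars on the left exceed the dark ones in each group of rows, 22.4 against 6.12 percent in the 49 rows.

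In the age comparison of PS19 animals, 7 of the 49 rows rose and 36 fell at 9 months against 4 months, where 6.09 and 77.0 percent of all 920 rows rose and fell (limma, adjusted p up to 0.05). In control animals 6 rose and 36 fell, where 6.09 and 79.3 percent of all rows did. The 2 comparisons use different animals, though both include the same uneven sets of 4-month replicates. Of the 49 rows, 6 rose and 34 fell in both, and the share of all rows that did so was not counted. The median log2 fold change of the 49 rows was -1.98 in PS19 and -2.20 in control, against -1.83 and -2.14 over all rows. The counts therefore have to be read against the whole table, most of whose rows fell. After TMM scaling within the repeats, the medians of all rows were -0.13 in PS19 and -0.19 in control, and 15 of the 49 rows rose and 14 fell in PS19, against 15 that rose and 15 that fell in control. Among all rows 31.0 percent rose and 30.9 percent fell in PS19 on that scaling, and 31.2 and 33.8 percent in control. With the 4-month replicates 4 and 5 alone, 11 rose and 17 fell in PS19, where 14.0 and 50.2 percent of all rows did, and 11 rose and 13 fell in control, where 16.3 and 50.2 percent did.

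By family, 18 of 23 hAT-Tip100 rows fell at 9 months and 2 rose in PS19, and 19 fell and 2 rose in control. Among all 920 rows 77.0 percent fell and 6.09 percent rose in PS19, and 79.3 and 6.09 percent in control. After TMM scaling 7 hAT-Tip100 rows fell and 6 rose in PS19, and 6 fell and 6 rose in control. On that scaling 30.9 percent of all rows fell and 31.0 percent rose in PS19, and 33.8 and 31.2 percent in control. The 2 hAT-Tip100 rows that rose as deposited were MER91A and MER96B. MER91A was at 248 ± 39.1 normalized reads in PS19 animals at 9 months, against 102 ± 71.8 in those at 4 months, a log2 fold change of 1.68 (SE 0.54, limma adjusted p = 0.0061). Its control values were 267 ± 31.7 at 9 months and 129 ± 104 at 4 months. After TMM scaling the log2 fold change of MER91A was 3.40 in PS19 and 3.69 in control. In MER91A the 4-month replicates 1 to 3 averaged 177, with a highest value of 248, and so overlapped the 9-month samples, whereas replicates 4 and 5 averaged 24.1. MER96B is a name listed in 2 families. The hAT-Tip100 row averaged 207 ± 25.6 at 9 months and 108 ± 65.6 at 4 months, and the hAT row 0.977 ± 1.49 at 9 months and 3.51 ± 3.26 at 4 months.

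The hAT-Tip100 rows that fell spanned the MER45, MER91, Arthur1, Zaphod and MamTip names. MER45B was at 8.28 ± 6.80 in PS19 and 6.21 ± 3.35 in control at 9 months, and at 87.5 ± 54.7 in PS19 and 101 ± 80.5 in control at 4 months, with log2 fold changes for age of -3.22 (SE 0.65) in PS19 and -3.33 (SE 0.67) in control. These changes in MER45B were -1.59 and -1.47 after TMM scaling, and with the 4-month replicates 4 and 5 alone the control value, -1.49, missed the threshold (limma adjusted p = 0.0513). MER91A rose as deposited while MER91B and MER91C fell, though after TMM scaling MER91B passed in neither genotype and MER91C in PS19 alone. MER45A, MER45B and MER45C fell as deposited, and MER45R passed in neither genotype, at 0.42 (SE 0.44) in PS19 and 0.62 (SE 0.46) in control. After TMM scaling MER45A and MER45R both rose, MER45A by 0.60 in PS19 and 0.83 in control and MER45R by 2.11 in PS19 and 2.58 in control, and MER45R also rose with the 4-month replicates 4 and 5 alone, by 1.25 and 1.81. MER91C averaged 5.14 ± 3.46 at 9 months against 42.6 ± 28.2 at 4 months, and MER91B 15.4 ± 7.13 against 82.7 ± 58.0. Arthur1B averaged 10.2 ± 4.77 at 9 months against 109 ± 81.4 at 4 months, and Zaphod 19.6 ± 9.94 against 121 ± 81.6. With the 4-month replicates 4 and 5 alone, Arthur1B still passed as a fall in PS19, at -1.38 (limma adjusted p = 0.0297), and missed the threshold in control, at -1.175 (limma adjusted p = 0.0630). In PS19 MER91B, MER91C and Zaphod did not pass, at -0.37, -1.26 and -0.99 (limma adjusted p = 0.671, 0.0859 and 0.134). Arthur1C and ORSL fell in 1 genotype each, Arthur1C in PS19 at -1.26 (SE 0.56, limma adjusted p = 0.0389) and ORSL in control at -1.47 (SE 0.54, limma adjusted p = 0.0135). Their values in the other genotype were -0.19 (SE 0.58) for Arthur1C in control and -0.65 (SE 0.52) for ORSL in PS19. Both falls turned with TMM scaling, to 0.33 for Arthur1C in PS19 and 0.43 for ORSL in control, neither of which passed. On that scaling the other genotype of each passed as a rise, Arthur1C in control at 1.67 (limma adjusted p = 0.00106) and ORSL in PS19 at 1.02 (limma adjusted p = 0.00665).

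Of the 7 hAT-Blackjack rows 6 fell in each genotype as deposited, where 77.0 percent of all rows fell in PS19 and 79.3 percent in control. After TMM scaling 2 of the 7 fell and 1 rose in PS19, and 3 fell and 1 rose in control. On that scaling 30.9 percent of all rows fell and 31.0 percent rose in PS19, and 33.8 and 31.2 percent in control. MER63B averaged 18.2 ± 10.2 normalized reads at 9 months against 163 ± 111 at 4 months, MER63D 22.8 ± 10.1 against 194 ± 122, MER63C 15.5 ± 7.84 against 80.4 ± 45.1, and BLACKJACK 11.4 ± 5.93 against 83.5 ± 51.4. With the 4-month replicates 4 and 5 alone, MER63B, MER63C and MER63D still passed as falls in PS19. BLACKJACK did not in PS19, at -0.95 (limma adjusted p = 0.117), and did in control, at -1.48 (limma adjusted p = 0.0188). In MER63B the 9-month samples lay between 9.88 and 50.3, overlapping the 4-month replicates 4 and 5, which lay between 22.05 and 90.8. MER81, the remaining row, was at 92.1 ± 18.2 in PS19 and 127 ± 19.4 in control at 9 months, and at 98.4 ± 64.6 in PS19 and 123 ± 84.1 in control at 4 months. Its age change was 0.28 (SE 0.49) in PS19 and 0.45 (SE 0.50) in control on the log2 scale and did not pass the test in either, while after TMM scaling it was the row that rose, by 1.995 in PS19 and 2.42 in control. With the 4-month replicates 4 and 5 alone MER81 also rose, by 1.69 and 1.90, and with replicates 1 to 3 alone it fell by 0.66 in PS19 and by 0.52 in control. The fall of MER63A and MER94 in PS19 turned with the scale: the log2 fold changes of -1.32 and -1.16 became 0.38 and 0.55 after TMM scaling, and 0.23 and 0.02 with the 4-month replicates 4 and 5 alone. MER53 of hAT changed by 0.04 (SE 0.47) in PS19 and 0.10 (SE 0.48) in control and passed in neither, while the other 4 tested hAT rows fell in both genotypes. MER53 fell by 0.53 in PS19 and by 0.95 in control against the 4-month replicates 1 to 3 alone, and rose by 0.91 and 1.67 against replicates 4 and 5 alone. After TMM scaling MER53 rose, by 1.77 in PS19 and 2.08 in control, and 2 of the other 4, hAT-N1_Mam and MamRep4096, fell in both genotypes. As deposited these were hAT-N1_Mam, at 12.0 ± 6.76 against 91.5 ± 50.04 normalized reads at 9 and 4 months, MER99, at 12.0 ± 4.50 against 61.3 ± 28.0, MamRep38, at 10.5 ± 6.6 against 62.6 ± 53.4, and MamRep4096, at 2.27 ± 1.79 against 44.6 ± 36.8. The 4-month values of each were higher in replicates 1 to 3, by mean, than in replicates 4 and 5. With replicates 4 and 5 alone, hAT-N1_Mam and MER99 still passed as falls in PS19. MamRep38 and MamRep4096 did not, at -0.95 and -0.90 (limma adjusted p = 0.149 and 0.294). MamRep1894, a hAT row under the limit for testing, had the higher mean at 9 months, 9.42 ± 5.15 against 3.93 ± 4.80.

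The 6 tested rows of the bare family DNA with MER names went in different directions. In both genotypes MER136 and MER123 rose, and MER105, MER124 and MER126 fell, though MER126 was at 0.02 in control after TMM scaling. With the 4-month replicates 4 and 5 alone MER126 passed in neither genotype, at -0.90 in PS19 and -0.088 in control. MER123 was at 15.7 ± 6.62 in PS19 and 16.8 ± 5.20 in control at 9 months, and at 4.98 ± 3.23 in PS19 and 7.43 ± 5.26 in control at 4 months. Its rise was 1.61 (SE 0.55, limma adjusted p = 0.00869) in PS19 and 1.34 (SE 0.57, limma adjusted p = 0.0297) in control. MER123 had passed the limit for testing through its 9-month values, so these adjusted p lend no separate support. Some 4-month samples of MER123 reached into the 9-month range, with a highest value of 13.6 against a lowest 9-month value of 6.55. MER105 was at 11.9 ± 11.1 in PS19 and 7.24 ± 5.94 in control at 9 months, and at 102 ± 59.1 in PS19 and 109 ± 73.3 in control at 4 months, and its highest 9-month value, 33.8, overlapped the lowest 4-month value, 27.8. MER135 was at 47.3 ± 13.6 in PS19 and 43.003 ± 8.52 in control at 9 months. At 4 months it was at 43.5, 54.8, 54.3, 9.08 and 1.63 in PS19 and at 56.6, 102, 57.8, 4.79 and 7.08 in control, so that replicates 1 to 3 lay within or above the 9-month range and replicates 4 and 5 below it. It passed in neither genotype as deposited and rose after TMM scaling, by 2.88 in PS19 and 2.59 in control.

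Ricksha elements appear under 2 family labels with 3 shared names, so their reads may be split between rows. The Ricksha_c row of MULE-MuDR was at 31.6 ± 6.22 in PS19 and 38.1 ± 5.83 in control at 9 months, and at 77.3 ± 46.2 in PS19 and 93.7 ± 65.7 in control at 4 months. Its log2 fold change for age was -1.06 (SE 0.46, limma adjusted p = 0.0348) in PS19 and -0.88 (SE 0.47, limma adjusted p = 0.0846) in control, and after TMM scaling both passed as a rise, at 0.63 (limma adjusted p = 0.0123) in PS19 and 1.08 (limma adjusted p = 0.000149) in control. The Ricksha row of MuDR was lower at 9 months, at 6.96 ± 4.08 in PS19 and 6.36 ± 5.39 in control, against 46.5 ± 26.1 in PS19 and 49.99 ± 26.4 in control at 4 months. Its fall held after TMM scaling, with log2 fold changes of -0.94 in PS19 and -1.01 in control and limma adjusted p of 0.0345 and 0.0274. This row too had passed the limit for testing through its 4-month values, so these adjusted p lend no separate support. Looper, the PiggyBac row, was at 11.4 ± 6.55 in PS19 and 9.35 ± 5.09 in control at 9 months, and at 55.9 ± 36.1 in PS19 and 62.2 ± 52.4 in control at 4 months. Its fall of 2.08 (SE 0.72, limma adjusted p = 0.00929) in PS19 did not pass after TMM scaling, at -0.44 (limma adjusted p = 0.456). With the 4-month replicates 4 and 5 alone it was -0.81 in PS19 and 0.25 in control (limma adjusted p = 0.298 and 0.754).

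Within the UCON names the rows moved in opposite directions. UCON14 made up 94.8% of the summed UCON signal at 9 months and 13.6% at 4 months. The other 4 UCON rows summed to a mean of 4.61 normalized reads at 9 months and 66.8 at 4 months. UCON29, listed under PiggyBac, was at 3.94 ± 2.73 in PS19 and 4.04 ± 4.42 in control at 9 months, and at 31.7 ± 17.2 in PS19 and 49.7 ± 37.2 in control at 4 months. It fell by 2.74 (SE 0.68) in PS19 and by 3.25 (SE 0.71) in control on the log2 scale, with limma adjusted p of 0.000692 and 0.000142, and after TMM scaling the fall passed in control and not in PS19. UCON29 had passed the limit for testing through its high 4-month values, so these adjusted p lend no separate support. UCON7, under the limit for testing, had 4 reads over the 9-month samples and 117 over the 4-month samples, with 0 reads in replicates 4 and 5.

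The Eulor names held a like contrast. Eulor5A, the row with the most Eulor reads, was at 116 ± 20.7 in PS19 and 107 ± 22.7 in control at 9 months, and at 68.1 ± 26.9 in PS19 and 74.3 ± 42.2 in control at 4 months. It rose by 0.85 (SE 0.38, limma adjusted p = 0.042) in PS19, and its change in control was 0.74 (SE 0.39, limma adjusted p = 0.0808). It rose in both genotypes after TMM scaling, by 2.55 in PS19 and 2.70 in control, and with the 4-month replicates 4 and 5 alone, by 1.28 and 1.83. Eulor5A made up 58.2% of the Eulor signal at 9 months and 32.7% at 4 months. Eulor10 was at 8.36 ± 3.58 in PS19 and 10.7 ± 5.93 in control at 9 months, and at 24.8 ± 9.34 in PS19 and 29.0 ± 10.1 in control at 4 months. It fell as deposited, with log2 fold changes of -1.50 (SE 0.49) in PS19 and -1.52 (SE 0.51) in control, and stood at 0.10 and 0.31 after TMM scaling. With the 4-month replicates 4 and 5 alone it was -1.265 in PS19 and -1.39 in control (limma adjusted p = 0.0688 and 0.0485). In Eulor10 the sets of 4-month samples were close, at a mean of 28.8 for replicates 1 to 3 and of 24.01 for replicates 4 and 5. The other 15 Eulor rows were under the limit for testing, and each had a lower mean at 9 months, at up to 2.34 normalized reads against 2.19 to 19.6 at 4 months. Against the 4-month replicates 4 and 5 alone, 10 of the 15 had the lower and 3 the higher mean at 9 months, the 3 being Eulor1, Eulor2B and Eulor2C at under 1 normalized read.

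In PS19 against control at 9 months, 1 of the 49 rows passed the test and was higher, where 3.04 percent of all 920 rows were, and 0 were lower, where 0.326 percent were (limma on the 9-month samples, adjusted p up to 0.05). That row was MamTip2 of hAT-Tip100. It was at 404, 469 and 508 normalized reads in PS19 and at 311, 325 and 452 in control (lowest, median and highest). Control replicate 3, at 452, lay within the PS19 range, and the other 5 control animals, at 311 to 336, lay below all 7 PS19 animals. The means were 458 ± 43.2 in PS19 and 344 ± 54.1 in control, a log2 fold change of 0.42 (SE 0.11, limma adjusted p = 0.0435).

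The MamTip2 call did not hold under several other fits. Its adjusted p was 0.9997 in the fit of all 23 samples, 0.178 after TMM scaling, 0.0572 in edgeR and 0.0152 in DESeq2. It was past 0.05 when PS19 replicate 2, 3, 5 or 6 or control replicate 1, 2, 4, 5 or 6 was left out, at 0.0740 to 0.120, and at 0.00554 without control replicate 3. The sample numbers of PS19 replicates 1 to 5 were below those of all controls. With PS19 replicates 6 and 7 alone, at 507 and 413, the log2 fold change was 0.43 with an adjusted p of 0.529. At 4 months MamTip2 was at 623, 583, 598, 471 and 394 in PS19 and at 629, 790, 662, 463 and 426 in control, and the log2 fold change was -0.14 (SE 0.44).

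The 49 rows had a median log2 fold change of 0.12 for PS19 over control at 9 months, and all 920 rows one of 0.19. The rows with an unadjusted limma p under 0.05 were MamTip2, Zaphod, MER45R and MER81, of which MamTip2 alone passed after adjustment over all 920 rows. Zaphod of hAT-Tip100 was at 11.0, 26.1 and 32.2 normalized reads in PS19 and at 2.84, 12.9 and 25.1 in control, a log2 fold change of 1.06 (SE 0.40, limma adjusted p = 0.158). MER81 of hAT-Blackjack was at 73.5, 80.8 and 123 in PS19 and at 102, 130 and 147 in control, a log2 fold change of -0.47 (SE 0.16, limma adjusted p = 0.12). After TMM scaling MER81 was the single row past the threshold, at -0.64 (SE 0.13, limma adjusted p = 0.00957), in place of MamTip2, where 0.870 percent of all rows were higher and 0.761 percent lower. MER45R was at 44.9, 59.7 and 73.2 in PS19 and at 61.9, 80.3 and 115 in control, a log2 fold change of -0.44 (SE 0.20, limma adjusted p = 0.234). These 3 rows overlapped between the genotypes.

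The other rows named for the size of their 9-month difference were less clear. MER63A had a log2 fold change of 0.52 (SE 0.32), MER105 0.59 (SE 0.64) and Ricksha_c of MULE-MuDR -0.27 (SE 0.22), with limma adjusted p of 0.379, 0.614 and 0.491. UCON14 was at -0.26 (SE 0.16), Eulor6E at -0.17 (SE 0.21), Eulor5A at 0.12 (SE 0.17) and MER136 at -0.20 (SE 0.26), with adjusted p of 0.383 to 0.704. MamRep488, a hAT-Tip100 row under the limit for testing, was singled out after its values were seen. It was at 4.94 ± 1.76 in PS19 and 0.647 ± 1.003 in control at 9 months, on 39 reads in all, and 4 of the 6 control animals had no read. With no limit on the mean its log2 fold change was 1.98 and its limma adjusted p 0.0225.

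**Figure D5:**
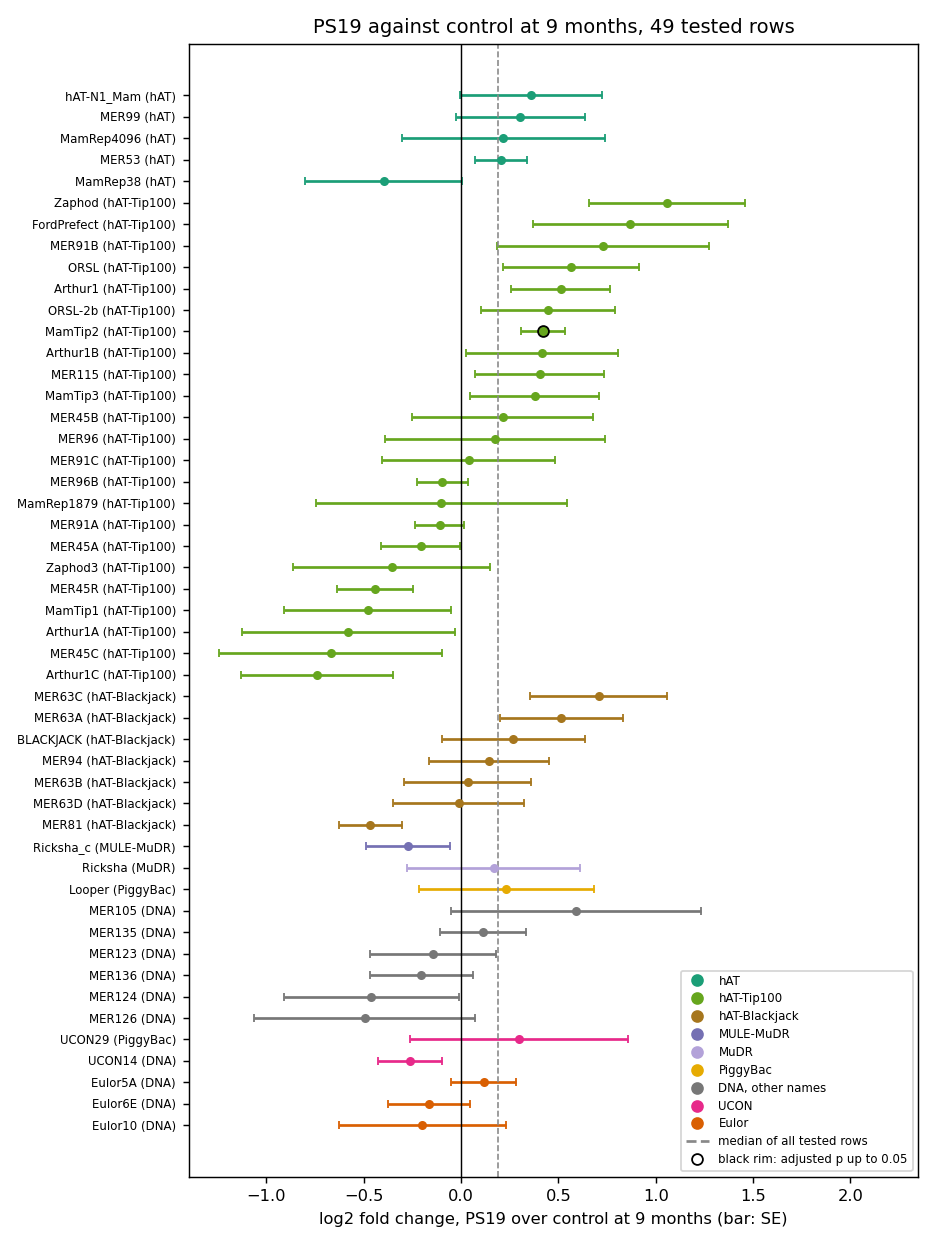
Log2 fold change of normalized reads plus 1 for PS19 over control at 9 months (7 against 6 animals), with its SE, for the 49 tested rows by family. The dashed line is the median of all 920 rows, 0.19. MamTip2, with a black rim, is the row past the threshold, at 0.42.

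In PS19 against control at 4 months, 0 of the 49 rows passed the test in either direction, where 0.00 percent of all rows did (limma on the 4-month samples), and 0 had an unadjusted p under 0.05. The count was also 0 in edgeR and in DESeq2, in limma with the set of 4-month samples as a covariate, and with replicates 4 and 5 alone. The median log2 fold change was -0.12 in the 49 rows and -0.08 in all rows. The SE of the named rows lay mostly above 0.6, as in UCON14, at 0.53 (SE 1.03), and Eulor6E, at -0.91 (SE 0.73). MER53 was at 0.26 (SE 0.73), Arthur1B at 0.21 (SE 0.86), MER63A at -0.42 (SE 0.86), MER94 at -0.32 (SE 0.70) and MER81 at -0.30 (SE 0.78). The Arthur1B row shows the spread: its PS19 values were 117, 151, 218, 37.5 and 22.8 and its control values 111, 218, 180.8, 17.3 and 20.1, so that the sets lay apart and the genotypes overlapped.

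Whether the PS19 difference itself changed between the ages was tested as an interaction in all 23 samples. It passed in 0 of the 49 rows, where 0.00 percent of all rows did (limma, adjusted p up to 0.05), and 0 of the 49 had an unadjusted p under 0.05. Both edgeR and DESeq2 also called 0. The interaction was 0.56 (SE 0.37) for MamTip2, -0.80 (SE 0.93) for UCON14 and 0.74 (SE 0.65) for Eulor6E on the log2 scale.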

How the data were processed

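RNA was measured in 23 spinal cord samples of 4 groups. The deposited values are a normalized signal per repeat subfamily, reads divided by a size factor of the sample. Per the submitters' processing notes, mm10 was the genome build and Trimmomatic, STAR and DESeq2 were among the tools. The sources used here do not give versions, the repeat annotation, the counting of reads that match many copies, or whether the ages were scaled together. Related rows can share reads, and reads of transposon transcripts and of other RNA holding the repeats are not told apart in the table. Each value was a whole number of reads within 0.1 percent of a read, which gave the reads behind it; repeat reads per sample were between 338090 and 2168280. Columns left unused numbered 0. No 2 samples of a group agreed within sampling noise. Nothing states litters or batches, so replicate numbers follow the sample order and p-values measure the spread between these animals.

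Rows with a mean of at least 10 were fitted as log2(value + 1) in limma (version 3.58.1, R 4.3.3) using empirical Bayes moderation with a mean-variance trend, and Benjamini-Hochberg adjustment over all 920 rows and a threshold of 0.05. Genotypes were compared within the samples of an age, and ages and the interaction in all 23 samples. Alternatives were pseudocounts of 0.5 and 5, no limit and a limit of 50, TMM and quantile scaling within repeats, a stricter threshold of 0.01, array weights, variance estimated robustly or without a trend, tests of the recovered reads in DESeq2 1.42.0 or edgeR 4.0.16, leaving out each sample, subsets of the 4-month samples or of PS19 animals, and, chosen after seeing the data, fits of 1 genotype. The fits were tested on simulated data.

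Named rows were those past the threshold at 9 months, those not overlapping between ages (all higher rows and the 6 lower rows with the widest gap), the leading row of each family of 3 or more, the 3 leading UCON and Eulor rows, and the 3 highest and lowest genotype changes per age at a mean of at least 50. Other rows were named after their values were seen. The members and lists were chosen with earlier results of these data known.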

Additional observations from a re-analysis of the deposited data

Results flagged for a closer look

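In groups of 4 to 10 animals, a sample was picked out where its gap to the nearest other sample took up more of the group's range than Dixon's 95% critical value allows. Chance does this in about 1 of 20 groups, and 8 of 128 groups were picked out. Control replicate 3 at 9 months stood above the other 5 control animals in 4 of them. Its sum over the 88 rows was 2587.2 normalized reads, against 2060.8 to 2210.6 in the others. Its hAT-Blackjack sum was 325.24, against 223.85 to 256.96, and its sum over the MER rows of the family DNA was 169.96, against 109.04 to 130.59. MamTip2 was at 452.19 in it, against 310.54 to 336.47.

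Control replicate 6 at 9 months had 17.126 normalized reads in the Ricksha row of MuDR, and the same 17.126 as the MuDR sum, since the other MuDR rows were at 0, against 2.7983 to 6.0212 in the other controls. MER105 was at 33.838 in PS19 replicate 1 at 9 months, against 0.84703 to 14.913 in the other PS19 animals. MER136 was at 4.6175 in PS19 replicate 3 at 4 months, against 0 to 0.81273 in the others. What sets these samples apart was not tested.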

How the results depend on the processing

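No paired analysis was possible because replicate numbers follow the sample order and pair no animals. The 9-month genotype count of 1 was 0 at a threshold of 0.01, without a variance trend, in edgeR, in the fit of all 23 samples and with PS19 replicates 6 and 7 alone, 2 with array weights (MamTip2 and Zaphod), and 0 to 1 leaving out each animal. It stayed at 1 through another row with no limit on the mean (MamRep488) and with TMM or quantile scaling (MER81). The limma adjusted p of MamTip2 was 0.0605 with no limit and 0.173 with quantile scaling. The interaction count was 12 with array weights, whose estimation did not converge there. The age count of 43 in PS19 and 42 in control was 72 and 73 with no limit on the mean, 16 and 15 at a limit of 50, and 28 and 24 with the 4-month replicates 4 and 5; quantile scaling gave 25 in PS19. The rows that rose, 7 and 6, were 4 and 3 at a limit of 50, 15 and 15 with TMM, 13 and 14 with quantile scaling, 11 and 11 with replicates 4 and 5, and 3 in control in edgeR. The rows that fell, 36 in each, were 64 and 67 with no limit, 12 and 12 at 50, 14 and 15 with TMM, 12 and 14 with quantile scaling, and 17 and 13 with replicates 4 and 5. Leaving out each animal gave 36 to 43 in PS19 (5 to 8 higher, 30 to 36 lower) and 38 to 42 in control (4 to 7 higher, 32 to 37 lower). For TMM scaling and for replicates 4 and 5 alone, the shares of all rows stand with the age comparison above. No such share is given for the other settings, so whether their counts are particular to these rows was not tested.

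Rows not overlapping and higher at 9 months, 3, were 10 with replicates 4 and 5, 11 with TMM, 11 as percent of repeat signal, 1 at a limit of 50 and 3 to 4 leaving out each animal. Lower rows, 6, were 0 with TMM, 1 as percent, 2 at 50 and 6 to 11, being 11 without PS19 replicate 1 at 9 months or control replicate 4 at 4 months. Shares of all rows without overlap are given above for replicates 4 and 5 and for percent values, and not for the other settings. Age changes turned positive in control for MamTip2 (1.22 with TMM, 0.85 with quantile scaling), Eulor10 (0.31, 0.89) and MER94 (0.34 with TMM), and in PS19 for Eulor10 (0.10, 0.62), MER63A (0.38, 0.13, and 0.23 with replicates 4 and 5), MER94 (0.55, 0.21, and 0.022 with replicates 4 and 5) and Ricksha_c (0.63, 0.44). The causes were not tested. For values of named rows that passed as deposited, the other 1324 kept direction and side of the threshold and 76 lost the call. Of the age changes of named rows that did not pass as deposited, all 4 in PS19 and all 5 in control passed as rises with TMM and with quantile scaling, MamTip2 in PS19 (1.52, 1.13) and Ricksha_c in control (1.08, 0.80) with a turned sign. Against the 4-month replicates 1 to 3 alone and with array weights, MER53 and MER81 passed as falls in both genotypes. The estimation of array weights did not converge in these age comparisons either. Rows of few reads at 9 months limit any statement on their change between genotypes.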
